A study of Drosophila melanogaster with 4 samples.

Results

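The 10 genes bam, bgcn, mei-P26, Sxl, otu, ovo, Rbp9, snf, stwl and zpg direct or accompany the passage of Drosophila female germline stem cells into differentiating cysts. They were taken as a list of symbols, with no threshold on a measured value but with earlier results of these data known, and make up 10 of the 17429 genes or joint loci named in 4 ribosome footprint tables. The study compared ovaries of wildtype females with ovaries of RpS5b mutant females, with 2 libraries per genotype. RpS5b is one of the fly's paralogous genes for ribosomal protein S5. The labels name no allele, no rescue and no background strain. Females were dissected by hand at 48 hours after eclosion. Control ovaries were freed of stage 10 to 14 egg chambers, while no such removal is stated for the mutant. Footprints of 28 to 34 nt, the RNA stretches a ribosome protects from nuclease, were sequenced after depletion of ribosomal RNA.

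A germline stem cell of the fly ovary sits against somatic niche cells, and the BMP signal it receives from them keeps bam silent. A daughter that leaves the niche switches bam on, and Bam with its partner Bgcn represses the translation of stem cell mRNAs so that the daughter divides into an interconnected cyst. Sxl, the RNA-binding protein of female identity, works beside Bam in this step, and ovo, otu and snf act for its female-specific expression in the germline, while mei-P26 and Rbp9 carry cysts onward. A footprint count reflects both the amount of a gene's mRNA and how densely ribosomes sit on it.

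The libraries held 3122299 to 13942184 reads by the file headers, of which 1052328 and 1736162 (wildtype) and 4597754 and 3064924 (mutant) fell on protein-coding genes. Transfer RNA genes took 54.82% to 63.98% of the counts over genes. RpS5b itself had 287 and 342 counts in wildtype libraries and 10 and 9 in mutant libraries, with log2 fold change -6.42 (SE 0.288, edgeR adjusted p = 2.52e-05), and its paralog RpS5a rose by 1.52 (SE 0.261, edgeR adjusted p = 0.00327). Values below are CPM, that is counts divided by TMM-adjusted library sizes and scaled to 1 size for all libraries, and log2 fold changes are mutant over wildtype. A gene was called changed where edgeR's quasi-likelihood test gave an adjusted p under 0.05 over all 7779 genes tested. No label says that libraries of 1 genotype came from separate flies, so p-values measure a spread between libraries that may be technical. With 2 libraries against 2, the smallest two-sided p of an exact permutation test is 0.333. In whole ovaries, fewer cells of a type and less RNA per cell cannot be told apart.

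Of the 10 genes, 8 had enough counts to be tested. The gap junction gene zpg and the female identity gene Sxl were higher in the mutant, the splicing factor gene snf was lower, and the other 5 tested genes did not pass the test. These 3 calls are 37.5% of the tested members, beside 41.3% of all genes tested, with 20.5% called higher and 20.9% lower, so the share called was near that of all genes. CPM values of the genotypes did not overlap for 5 of the 8, beside 71.9% of all tested genes: 4 lay higher in the mutant (37.6% of all genes) and 1 lower (34.3%). The median log2 fold change was 0.04 over the 8 members and 0.03 over all tested genes.

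**Figure D1:**
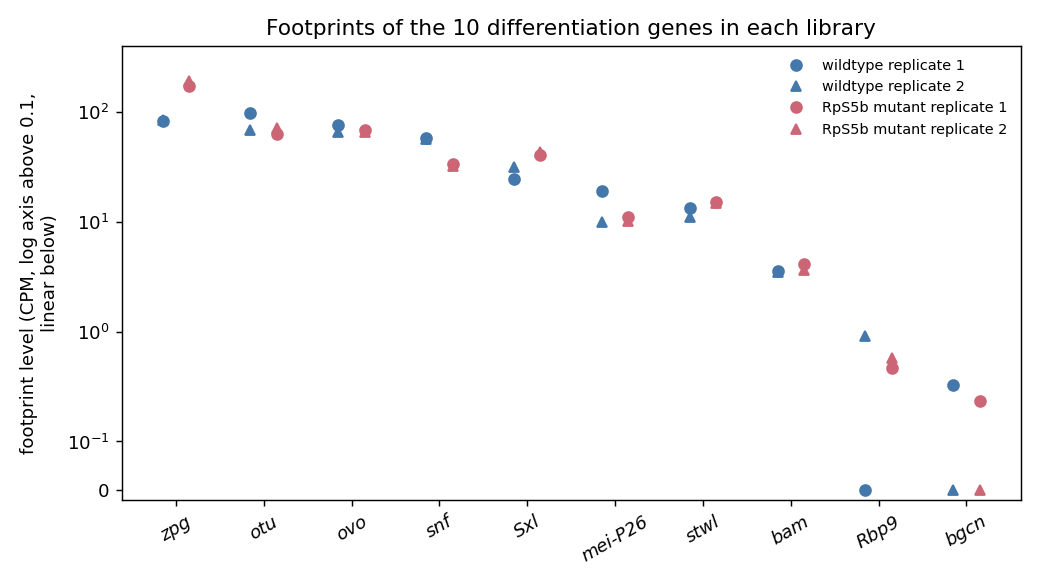
CPM of each of the 10 genes in every library, on an axis that is logarithmic above 0.1 CPM and linear below, with wildtype in blue, mutant in red, circles for replicate 1 and triangles for replicate 2. The mutant libraries of zpg (172 and 192 CPM) lie above the wildtype ones, those of snf (33.9 and 32.0 CPM) lie below, and the points of otu, ovo and mei-P26 intermingle.

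The switch gene bam lies on chromosome 3R at 25243039 to 25245109, minus strand, of build BDGP6, and its 1 annotated transcript of 1894 nt was used. It had 11 and 19 counts in wildtype libraries and 53 and 32 in mutant libraries, which is 3.56 and 3.51 CPM against 4.12 and 3.67 CPM. Both mutant libraries stood above both wildtype ones, yet by little: the mean was 3.53 ± 0.0376 CPM in the wildtype and 3.90 ± 0.317 in the mutant (SD, n = 2 each). The log2 fold change of 0.15 (SE 0.282) did not pass (edgeR adjusted p = 0.697), and its 95% interval of -0.51 to 0.81 spans 0. A gene on the opposite strand, CG11854, overlaps bam by 224 nt and had 0 counts in all 4 libraries.

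Its partner bgcn, a protein related to RNA helicases, lies on 2R at 23853270 to 23858921, minus strand. It had 1 and 0 counts in wildtype libraries and 3 and 0 in mutant libraries, too few for a test. The ratio of mutant to wildtype was 1.18 with a 95% counting interval of 0.095 to 62.1, so no difference was detectable at this depth. A count of 0 still allows up to 3 counts in a library.

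Among the translational regulators, mei-P26 encodes a TRIM-NHL protein that limits cyst divisions with Bam, Bgcn and Sxl. It lies on X at 9163255 to 9189309, plus strand. The 2 wildtype libraries had 59 and 54 counts and the mutant libraries 142 and 88, or 19.1 and 9.96 CPM against 11.0 and 10.1 CPM. One wildtype library was the highest of the 4 and the other the lowest, so the genotypes overlapped, and the log2 fold change of -0.38 (SE 0.28) did not pass (edgeR adjusted p = 0.316). Its value rests on the wildtype libraries: without wildtype replicate 1 it was 0.087 (edgeR adjusted p = 0.795), and without wildtype replicate 2 it was -0.86 and passed the test (edgeR adjusted p = 0.0243).

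The transcripts of mei-P26 differ in a stretch of 17809 nt that makes up 77.3% of the longest one. That stretch held 3 and 3 counts in wildtype libraries and 1 and 5 in mutant libraries, 12 of the gene's 343 counts, or 3.5% (95% exact interval 1.82% to 6.03%). The footprints of mei-P26 therefore lay almost wholly on the sequence shared with the shorter transcript. Coding and untranslated sequence were not told apart in these counts, so they do not show which transcript was made.

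Rbp9, an RNA-binding protein of the ELAV family that acts in cysts after bam, lies on 2L at 2954762 to 2968434, plus strand. It had 0 and 5 counts in wildtype libraries and 6 and 5 in mutant libraries and was not tested. Mutant over wildtype was 0.868 with a 95% counting interval of 0.278 to 3.19, which covers a fall and a rise alike.

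Of the germline sex identity genes, ovo encodes a zinc finger transcription factor that activates otu. It lies on X at 5048273 to 5070929, plus strand, with the counted transcript at 5064233 to 5070772. It had 234 and 358 counts in wildtype libraries and 881 and 572 in mutant libraries, or 75.7 and 66.1 CPM against 68.5 and 65.6 CPM. The libraries interleaved, and the mean was 70.9 ± 6.82 CPM in the wildtype and 67.1 ± 2.02 in the mutant (SD, n = 2 each). The log2 fold change was -0.08 (SE 0.138, 95% interval -0.40 to 0.25, edgeR adjusted p = 0.693), and it turned to 0.019 without wildtype replicate 1 (edgeR adjusted p = 0.939). A pair of the 5 ovo transcripts held 31, 44, 78 and 60 counts more, in the order wildtype 1, wildtype 2, mutant 1 and mutant 2, than the other 3, among them those that start at 5048273. A stretch of 159 nt at 5065914 to 5066072 in 4 of the 5 transcripts held 0 counts.

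The target of ovo, otu, encodes a deubiquitinase with a role in early cysts and in nurse cells. It lies on X at 8485008 to 8489535, minus strand, and had 304 and 370 counts in wildtype libraries and 813 and 624 in mutant libraries. In CPM these were 98.3 and 68.3 against 63.2 and 71.6. Wildtype replicate 1 stood above the other 3, which lay close together, and the log2 fold change of -0.30 (SE 0.192, 95% interval -0.74 to 0.15) did not pass (edgeR adjusted p = 0.249). It was -0.02 without wildtype replicate 1 (edgeR adjusted p = 0.934) and -0.56 without wildtype replicate 2 (edgeR adjusted p = 0.0515). CG33181, on the opposite strand, overlaps otu by 162 nt with 18, 27, 22 and 13 counts of its own in the same order of libraries. The sources used here do not say whether the counting used strand.

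Alternative splicing of otu yields a larger and a smaller protein, the larger with a Tudor domain from an added exon. An exon of 126 nt at X 8487257 to 8487382, present in 2 of the 5 annotated otu transcripts, held 1 and 0 counts in wildtype libraries and 7 and 0 in mutant libraries. That is 8 of 2111 otu counts, or 0.379% (95% exact interval 0.164% to 0.745%), on an exon that makes up 3.89% of the transcript. The footprints of otu in both genotypes came nearly all from outside this exon. Another stretch of 95 nt, at 8489374 to 8489468 and held by 3 transcripts, had 0 and 0 counts in wildtype libraries and 8 and 6 in mutant libraries.

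Sxl lies on X at 7074550 to 7098053, minus strand, with 25 annotated transcripts. It had 76 and 170 counts in wildtype libraries and 523 and 376 in mutant libraries, or 24.6 and 31.4 CPM against 40.7 and 43.1 CPM. Both mutant libraries lay above both wildtype ones, with a mean of 28.0 ± 4.79 CPM in the wildtype and 41.9 ± 1.76 in the mutant (SD, n = 2 each). Sxl rose 1.48-fold, with log2 fold change 0.57 (SE 0.155, 95% interval 0.20 to 0.93, edgeR adjusted p = 0.0227), larger than for 76.7% of tested genes. The direction held in all 14 alternative settings, but the call was lost in 4 of them: without wildtype replicate 1 the log2 fold change was 0.41 (edgeR adjusted p = 0.0901), with libraries thinned to 1 total 0.39 (adjusted p = 0.164), with the longest transcript 0.40 (adjusted p = 0.0548) and with DESeq2 0.54 (adjusted p = 0.138).

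In females, Sxl protein directs the splicing of its own transcript so that an exon with a stop codon, kept in males, is skipped. The files do not mark which exon that is. One cassette exon, at X 7088578 to 7088767 and 190 nt long in its longer form, is held by 9 of the 25 transcripts, 5 of them with the 18 nt at its 5′ end. It had 0 of the 1145 Sxl counts of the 4 libraries, which allows a share of up to 0.262%, while it would make up 3.55% of the length of the counted transcript with the exon added. No library of either genotype had a footprint there. An exon of 66 nt at 7080989 to 7081054, held by 4 transcripts, had 2 and 4 counts in wildtype libraries and 7 and 5 in mutant libraries. The microRNA gene mir-4956 lies within Sxl on the same strand, with 10, 14, 37 and 24 counts over its 117 nt, in the order wildtype 1, wildtype 2, mutant 1 and mutant 2. These 117 nt lie in exons of the counted Sxl transcript, so the same reads are also among the Sxl counts. They cannot be assigned to 1 of the genes.

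The splicing factor gene snf encodes a protein of the U1 and U2 small nuclear ribonucleoproteins that is needed for female splicing of Sxl in the germline. It lies on X at 5309242 to 5310501, plus strand, with 1 transcript of 835 nt. It had 179 and 310 counts in wildtype libraries and 436 and 279 in mutant libraries, or 57.9 and 57.2 CPM against 33.9 and 32.0 CPM. The libraries of each genotype lay close together and the genotypes far apart. The snf footprint level fell 1.74-fold, from 57.6 ± 0.505 to 33.0 ± 1.33 CPM (SD, n = 2 each), with a difference on the log2 scale of -0.80 (SE 0.127, 95% interval -1.10 to -0.51, edgeR adjusted p = 0.00236). Of the tested genes, 15.8% had a lower log2 fold change. In all 14 alternatives snf was called lower, with log2 fold changes from -0.87 to -0.75. The footprints of snf and of Sxl, the gene whose transcript it helps to splice, thus moved in opposite directions.

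The chromatin gene stwl, whose MADF-domain protein keeps germline stem cells and represses transposons, lies on 3L at 14402930 to 14409939, minus strand. It had 41 and 60 counts in wildtype libraries and 195 and 130 in mutant libraries, or 13.3 and 11.1 CPM against 15.2 and 14.9 CPM. The mutant libraries both lay above the wildtype ones, but the log2 fold change of 0.33 (SE 0.162, 95% interval -0.05 to 0.71) did not pass (edgeR adjusted p = 0.142). A stretch of 580 nt at the 3′ end of its longest transcript held 0 counts in every library.

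**Figure D2:**
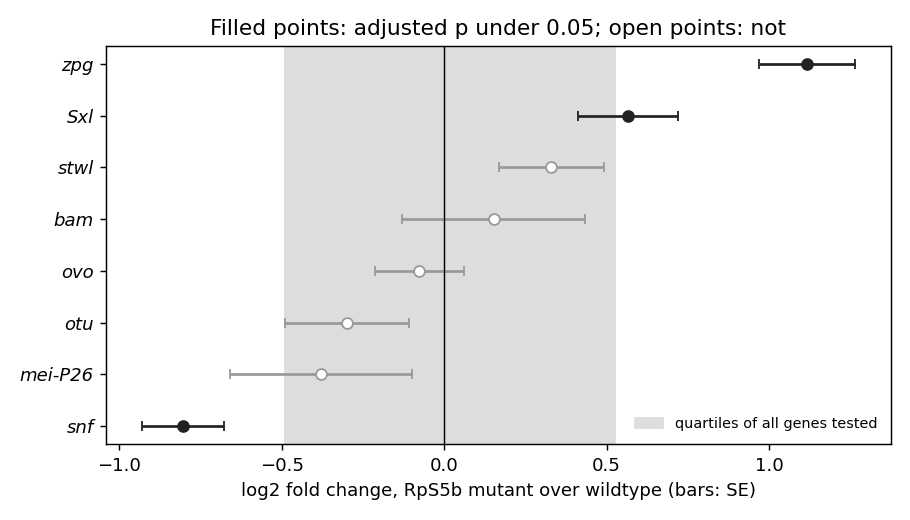
Log2 fold change (mutant over wildtype) of the 8 tested genes, with points for the estimate and bars for its SE, beside the quartiles of all tested genes (-0.49 and 0.53). The 95% intervals (not drawn) lie above 0 for zpg and Sxl, below 0 for snf and across it for the other 5.

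The germline gap junction gene zpg encodes Innexin 4, a channel protein that joins germ cells to the somatic cells around them and that early germ cells need to differentiate. It lies on 3L at 6604366 to 6606032, minus strand. It had 258 and 458 counts in wildtype libraries and 2217 and 1675 in mutant libraries, or 83.5 and 84.5 CPM against 172 and 192 CPM. The wildtype libraries nearly coincided and both mutant libraries stood far above them. Levels of zpg rose 2.17-fold, from 84.0 ± 0.732 to 182 ± 14.0 CPM (SD, n = 2 each), with a difference on the log2 scale of 1.12 (SE 0.147, 95% interval 0.78 to 1.46, edgeR adjusted p = 0.00111). It was higher than the log2 fold change of 92.6% of tested genes, and the call held in all 14 alternatives at log2 fold changes from 1.04 to 1.26.

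The other innexins of the fly form the somatic side of such channels or channels of other tissues. All 4 that had enough counts, ogre (Innexin 1), Inx2, Inx3 and Inx7, rose, beside 20.5% of all genes called higher, and each was called in all 14 alternatives. Of the other 3 of the 7 listed, Inx6 and shakB had 0 counts in every library and Inx5 had 1 count in all. Inx2, the partner that follicle and escort cells present to Zpg, stood at 66.3 and 75.5 CPM in wildtype libraries and 174 and 146 in mutant libraries, with log2 fold change 1.17 (SE 0.161, edgeR adjusted p = 0.00131). The gene ogre had 32.0 and 35.2 CPM against 71.1 and 68.7 CPM (log2 fold change 1.05, SE 0.134, edgeR adjusted p = 0.000974). Inx3 had 16.5 and 17.9 CPM against 41.3 and 34.2 CPM (log2 fold change 1.13, SE 0.156, edgeR adjusted p = 0.00135). Inx7, the least abundant of the 4 in CPM, had 3.24 and 3.87 CPM against 17.0 and 12.2 CPM (log2 fold change 2.02, SE 0.279, edgeR adjusted p = 0.00135). No mutant library of zpg or of these 4 innexins overlapped a wildtype one. Genotypes did not overlap for 71.9% of all tested genes, with the mutant higher for 37.6% of all. The median log2 fold change of these innexins without zpg was 1.15, beside 0.03 for all tested genes. Follicle cell markers moved with them: the 13 listed summed to 1848 to 2556 CPM in the wildtype and 6499 to 6698 in the mutant. These sums came mostly from the yolk and vitelline membrane genes Yp1, Yp2, Yp3, Vm26Ab and Vm34Ca. Of the markers, 12 of the 12 tested were called higher, beside 20.5% of all genes, at a median log2 fold change of 1.12. Among these, slbo had 5 and 3 counts in wildtype libraries and 54 and 29 in mutant libraries. It passed the count filter only because of its mutant libraries, where it was high. Its call adds no evidence of a rise beyond these counts. The germ cell marker vas, picked after its values were seen, stood at 114.5 and 110.9 CPM in wildtype libraries and 106.7 and 120.1 in mutant libraries (log2 fold change 0.01, edgeR adjusted p = 0.968). Of the 8 germline markers tested, vas was 1 of 2 not called, while 2 were called higher and 4 lower. The part of the follicle cells in the innexin values was not tested.

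**Figure D3:**
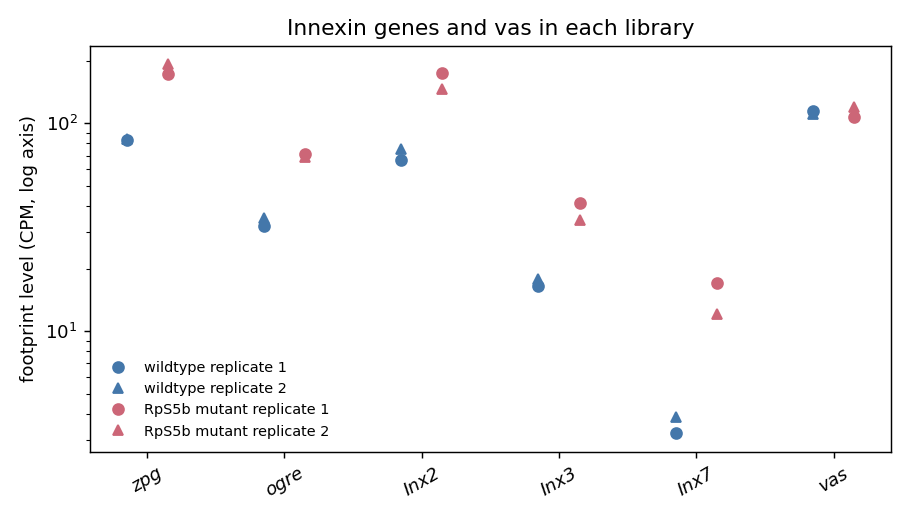
CPM of zpg, of the 4 other tested innexins (ogre, Inx2, Inx3 and Inx7) and of vas in each of the 4 libraries, on a log axis, with circles for replicate 1 and triangles for replicate 2. For each of the 5 innexins both mutant libraries (red) lie above both wildtype libraries (blue), while those of vas intermingle. The other germline markers, of which 2 were called higher and 4 lower, are not drawn.

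Germline markers differed in direction, with a summed level of 756 to 841.7 CPM in the wildtype and 561.1 to 646.1 in the mutant. Among them, bcd had 7 and 15 counts in wildtype libraries and 13 and 9 in mutant libraries. It passed the count filter only through its wildtype libraries, where it was high. Its call as lower therefore adds no evidence of a fall beyond these counts. Of all genes tested, 20.5% were called higher and 20.9% lower. Of 8 germline markers tested, aub and spn-E, of the piRNA pathway, were called higher and osk, bcd, tud and exu lower. These germline counts were 0 to 3 higher and 2 to 4 lower over the 14 alternatives, with 1 higher and 2 lower without wildtype replicate 1 and the same without mutant replicate 1, and 0 higher without wildtype replicate 2 or mutant replicate 2.

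Per kilobase of the counted transcript, snf had the highest wildtype level of the 10 genes, 68.9 ± 0.601 CPM per kb (SD, n = 2), followed by zpg at 54.6 ± 0.473, otu at 25.7 ± 6.56 and ovo at 11.9 ± 1.15. Sxl stood at 5.42 ± 0.928, stwl at 2.87 ± 0.366, bam at 1.86 ± 0.0198 and mei-P26 at 0.63 ± 0.28 CPM per kb, while Rbp9 at 0.132 ± 0.187 and bgcn at 0.0389 ± 0.055 overlapped. In the mutant, zpg and snf changed places: zpg had 118 ± 9.1 and snf 39.5 ± 1.6 CPM per kb (SD, n = 2 each), and the order below them was kept. The low end rests on the transcript lengths. With the shortest transcript of each gene, mei-P26 came to 2.79 CPM per kb in the wildtype and overlapped stwl and bam, and Sxl came to 14.0 and passed ovo at 11.2.

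Of 12 listed genes of the BMP signal that keeps stem cells, all tested, 5 were called higher and 2 lower, beside 20.5% and 20.9% of all genes, with a median log2 fold change of 0.37 beside 0.03 for all genes. The glypican gene dally, which concentrates the ligand near the niche, had 16.5 and 17.3 CPM in wildtype libraries and 32.0 and 29.4 in mutant libraries, with log2 fold change 0.85 (SE 0.135, edgeR adjusted p = 0.00238). The gene of the co-repressor Schnurri, shn, which silences bam with the Smads, rose by 0.83 (SE 0.135, edgeR adjusted p = 0.0027). The Smad genes themselves were lower: Mad had 30.1 and 29.3 CPM against 19.3 and 15.0 CPM (log2 fold change -0.78, SE 0.157, edgeR adjusted p = 0.00642), and Med was at -0.64 (SE 0.178, edgeR adjusted p = 0.0238), a call lost without wildtype replicate 1, without mutant replicate 2, after thinning and with DESeq2. Without wildtype replicate 1 the list had 3 genes higher and 1 lower, and without mutant replicate 2 it had 1 lower. The ligand gene dpp had 5, 6, 22 and 12 counts, and dpp and the inhibitor gene Dad were not called. Besides dally and shn, the genes gbb, tkv and sax were called higher. Their log2 fold changes were 0.88, 0.58 and 0.57 (edgeR adjusted p = 0.00366, 0.0241 and 0.0438).

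Of 11 listed stem cell maintenance genes with data, 1 was called higher and 4 lower, beside 41.3% of all genes called in either direction, with a median log2 fold change of -0.17 beside 0.03. The largest named fall was that of Ote, which encodes a LEM-domain protein of the nuclear lamina that represses bam in stem cells. Ote fell from 91.2 and 97.4 CPM in the wildtype to 14.2 and 14.0 in the mutant libraries, with log2 fold change -2.74 (SE 0.136, edgeR adjusted p = 2.91e-05). Dcr-1, of the microRNA pathway, was at -1.10 (SE 0.152, edgeR adjusted p = 0.00136). Its pathway partner AGO1 was higher, at 0.60 (SE 0.128, edgeR adjusted p = 0.00855), a call lost with DESeq2. The translational repressor gene pum was called lower at -0.42 (edgeR adjusted p = 0.0392), and piwi, of the piRNA pathway, was not called.

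Of 9 further cyst regulators, 1 was called higher and 3 lower, where 41.3% of all genes were called, and the median log2 fold change was -0.04 beside 0.03. CycA, which encodes a mitotic cyclin, fell from 52.1 and 42.4 CPM to 10.6 and 12.2 CPM (log2 fold change -2.05, SE 0.16, edgeR adjusted p = 0.000141). Pop2, a deadenylase subunit, was at -0.52 (SE 0.146, edgeR adjusted p = 0.0245) and the RNA helicase gene bel at 0.51 (SE 0.173, edgeR adjusted p = 0.0492). The call of bel was lost when any 1 of the 4 libraries was left out, which left 0 higher. The call of Pop2 was lost in 6 of the 14 alternatives, among them those without either wildtype library or mutant replicate 1, and 1 gene of the list was then lower. Rbfox1, bru1 and orb, RNA-binding proteins of later cysts, and the deadenylase gene twin were not called.

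Of 18 genes of germline sex identity and Sxl splicing, 16 were tested, and 2 were called higher and 4 lower, or 37.5% called beside 41.3% of all genes. The median log2 fold change was -0.07 beside 0.03. U2A, which encodes a U2 snRNP protein, fell like snf, from 21.03 and 21.95 CPM in wildtype libraries to 11.1 and 11.5 CPM in mutant libraries (log2 fold change -0.93, SE 0.135, edgeR adjusted p = 0.00163), in all 14 alternatives. The histone methyltransferase gene egg, whose protein silences the male germline gene Phf7 in females, was at -1.18 (SE 0.136, edgeR adjusted p = 0.000677). Phf7 itself had 5.18 and 5.90 CPM in wildtype libraries and 3.89 and 4.36 in mutant libraries and was not called. The U1 snRNP gene snRNP-U1-70K was higher at 0.49 (SE 0.134, edgeR adjusted p = 0.0222), a call lost with DESeq2 and when either wildtype library or mutant replicate 1 was left out. The sex differentiation gene dsx had 1 and 0 counts in wildtype libraries and 33 and 19 in mutant libraries. The ratio was 20.5 with a 95% counting interval of 3.52 to 826. Its log2 fold change was 4.17 (SE 0.804, edgeR adjusted p = 0.00538), and 2.82 without wildtype replicate 2. The gene passed the count filter only through its mutant libraries, where it was high, so its call adds no evidence of a rise beyond these counts. Of this list 1 gene was higher without wildtype replicate 1 or mutant replicate 1, and 0 without wildtype replicate 2. Of the targets of Sxl beyond its own gene, tra was not called, and msl-2 had 3 counts in all and was not tested.

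Of 8 genes of the fusome, the membranous organelle that runs through the cyst, 2 were called higher and 3 lower, beside 20.5% and 20.9% of all genes, with a median log2 fold change of -0.18 beside 0.03. The mitotic kinesin gene Klp61F was at -0.95 (SE 0.129, edgeR adjusted p = 0.00123), and TER94, which encodes an endoplasmic reticulum ATPase, at -0.69 (SE 0.19, edgeR adjusted p = 0.024). The adducin gene hts, the core fusome component, was lower at -0.48 (edgeR adjusted p = 0.0336). The cytoskeletal genes beta-Spec, at 0.58 (SE 0.148, edgeR adjusted p = 0.0172), and shot, at 0.41 (SE 0.139, edgeR adjusted p = 0.0498), were higher. The higher calls were 0 when either wildtype library or mutant replicate 1 was left out and 1 without mutant replicate 2, and the lower calls were 1 without wildtype replicate 1, mutant replicate 1 or mutant replicate 2. The call of TER94 was lost in those 3 settings and in 2 others, that of beta-Spec in 5 of the 14 alternatives and that of shot in 9.

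**Figure D4:**
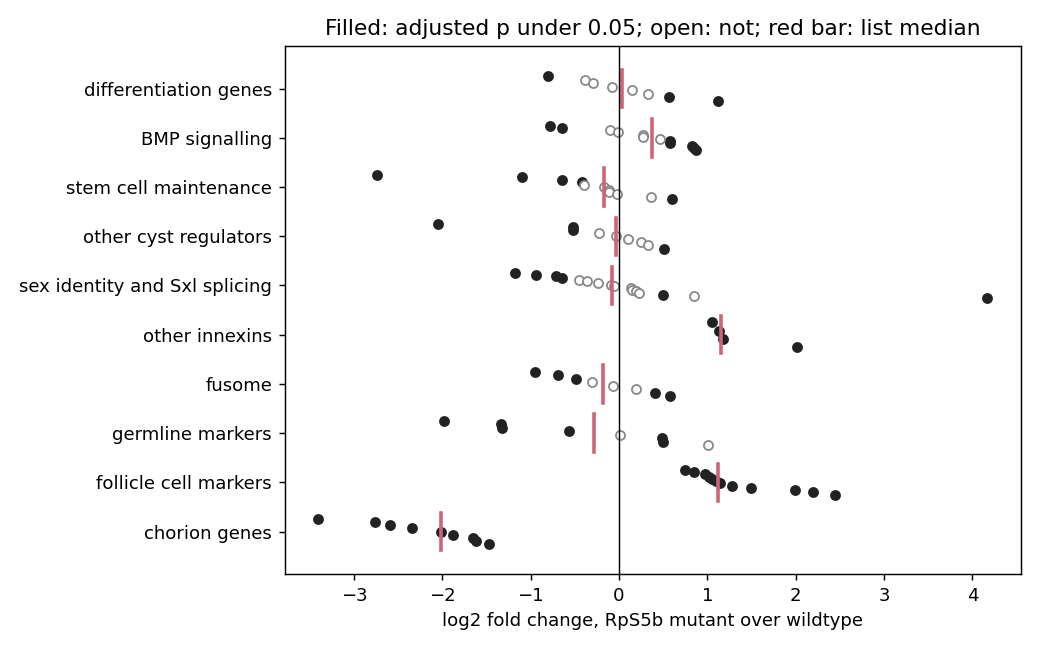
Log2 fold changes (mutant over wildtype) of the tested genes of the 10 differentiation genes, 6 pathway lists and 3 marker lists, 1 point per gene, filled where called, with a red bar at the list's median; the point farthest right is dsx, whose fitted value depends on the prior count. The innexin and follicle cell points lie above 0 and the chorion points below 0, while the BMP, stem cell, cyst, sex identity and fusome lists spread to both sides.

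Chorion genes of late egg chambers summed to 4800 to 7088 CPM in the wildtype and 1123 to 1600 in the mutant. Of these, 9 of 9 were called lower, beside 20.9% of all genes, at a median log2 fold change of -2.01. Niche and escort cell markers were near the limit of these libraries, with 3.69 to 6.146 CPM summed over 11 genes in the wildtype and 7.385 to 7.458 in the mutant, en and wg at 0 and 1 gene tested. Muscle markers summed to 110.1 to 156.2 against 164 to 165.3 CPM, with the titin-like gene sls called higher (20.1 to 50.4 CPM) and the other 6 not called, and with 0 called higher without wildtype replicate 2 and 3 without mutant replicate 2. Those of haemocytes and fat body summed to 27.86 to 33.64 against 52.32 to 57.45 CPM, of which the lipoprotein gene apolpp, called higher, made up 18.7 and 41.5 CPM, while Hml and Pxn were not called and Fbp1 and Fbp2 were at 0. Nerve and trachea markers stood at 2.583 to 4.205 and 3.671 to 3.809 CPM, with Syt1 and brp at 0. Testis markers summed to 26.2 to 29.11 CPM in the wildtype and 6.999 to 8.396 in the mutant, with 5 of 9 genes, can, sa, nht, dj and ProtA, at 0. The sum was mostly twe, a Cdc25-type phosphatase gene that also acts in female meiosis, at 18.8 CPM in the wildtype and 1.56 in the mutant, and betaTub85D was also lower. The remaining tested gene, mia, was called higher (1.22 to 3.1 CPM, edgeR adjusted p = 0.037), a call lost when any 1 library was left out. It had 3 and 8 counts in wildtype libraries and 37 and 29 in mutant libraries. It passed the count filter only through its mutant libraries, where it was high, so its call adds no evidence of a rise beyond these counts. When either wildtype library was left out, 1 testis marker was lower. The part of these cell types in the values of the 10 genes was not tested.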

How the data were processed

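Ribosome footprints were compared in 2 wildtype and 2 RpS5b mutant ovary libraries. The authors deposited 1 table per library with 34729 transcripts. Per the file headers, deposited counts are reads of 25 to 100 nt assigned to whole transcripts by a position 12 nt from their 5′ end, with nothing masked. The deposited signal is the count per nucleotide, and the deposited RPKM scales it to the library total. Only counts were tested. The submitters' processing notes name build BDGP6 and, with no roles given, DESeq2, TopHat2 2.1.2, bedtools 2.26.0, Bowtie 1.0.0 and SAMtools 0.1.19.

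Transcripts were named by their coordinates in a RefSeq Release 6 gene table, through shared ends, splice junctions or at least 80% overlap. This named 34531 transcripts (99.4%). The other 198 held 0.261% to 0.473% of reads and were left out. The transcript with the highest mean count stands for a gene. One listed gene had no entry in the gene table and is not reported here. Counts of stretches were solved from transcript totals, with no misfit. Reads have no molecular identifiers, so intervals (Clopper-Pearson for shares) and floors of 3 counts cover counting error only.

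Genes passed filterByExpr, were scaled by TMM and tested with edgeR 4.0.16 (R 4.3.3) by the quasi-likelihood test, with 5.54 prior and 2 residual degrees of freedom and Benjamini-Hochberg adjustment. DESeq2 1.42.0 was an alternative. The functions were tested on simulated data. Replicates differed beyond sampling noise, with a chi-square per gene of 15.7 in the wildtype and 42.8 in the mutant. The members, lists and alternatives were chosen with earlier results of these data known. The text names all members, RpS5b and RpS5a, up to 2 genes per direction and list with the smallest p, and all tested innexins. Named after their values were seen were pum, hts, gbb, tkv, sax, the cell type markers, and genes given as not called. No sequence is shown.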

Additional observations from a re-analysis of the deposited data

How the results depend on the processing

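Over 14 alternatives zpg, Sxl and snf kept their directions, and zpg and snf their calls. Against 1593 genes higher and 1622 lower, DESeq2 called 849 and 1131, and leaving out 1 library gave 1036 to 1414 higher and 1211 to 1530 lower. Of the 10 genes, 2 were higher and 1 lower; 1 was higher with DESeq2, after thinning to 1 total and with the longest transcript, and leaving out 1 library gave 1 to 2 higher and 1 to 2 lower. Without wildtype replicate 1 the log2 fold changes of mei-P26 and ovo turned to 0.087 and 0.019, neither called; leaving out 1 library at a time gave -0.861 to 0.087 for mei-P26 and -0.189 to 0.019 for ovo. The labels' replicate numbers are shared between genotypes, but nothing says that they pair libraries; deviations correlated at 0.292 across genes. With the replicate number as a block, 1928 genes were higher and 1885 lower, and the members' counts stayed at 2 and 1. Without a filter on low counts bgcn (adjusted p = 0.953) and Rbp9 (adjusted p = 0.92) were not called; under the stricter filter bam was not tested. The median log2 fold change of all genes was 0.0317, -0.000564 with RLE factors, 0.0844 with header totals and 0.0968 with total counts. Depth limits bgcn and Rbp9 most, and bam next.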
